A study of Homo sapiens with 12 samples.

Results

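The mRNAs of 10 genes of the IL-1 family were followed across ASC adipocytes with and without knockdown (KD) of linc-ADAIN and with and without lipopolysaccharide (LPS). They were the ligands IL1A, IL1B, IL18 and IL33, the antagonist IL1RN and the receptor chains IL1R1, IL1R2, IL1RAP, IL1RL1 and IL18R1. The members were chosen by name, as the main cytokines and receptors of the family, and all 10 were found among the 28901 gene names of the deposited table. The cells were ASC52telo, a line of human adipose stromal cells immortalized with hTERT, the catalytic subunit of telomerase. Before differentiation they had been infected with a lentivirus that carried a hairpin RNA and the green fluorescent protein ZsGreen, and green cells had been sorted. The scramble control group carried a scramble shRNA, and the KD group carried 1 hairpin against linc-ADAIN, an adipose long intergenic noncoding RNA. The other 2 groups carried the same hairpins and received LPS, a cell wall component of bacteria that signals through TLR4, at 100 ng/mL for 4 h on day 14. All 4 groups were differentiated with insulin, dexamethasone, isobutylmethylxanthine and rosiglitazone and then kept in insulin and dexamethasone, so the glucocorticoid was in the medium of the control groups too. There were 3 libraries per group, from 1 experiment in triplicate in 1 immortalized line, and p-values therefore measure only the spread between these libraries. The KD was present throughout differentiation, so differences between the hairpins are those between cells that were differentiated with and without it. The level of linc-ADAIN was not analysed here.

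IL-1α and IL-1β bind IL1R1, which signals only after the accessory chain IL1RAP joins it. The adaptor MYD88, IRAK kinases and TRAF6 then lead to NF-kB, which turns on cytokine, chemokine and matrix protease genes. IL1RN encodes the receptor antagonist, which occupies IL1R1 without recruiting IL1RAP, and IL1R2 is a decoy that binds IL-1 without signalling. IL-33 uses IL1RL1, also called ST2, together with the same IL1RAP, and IL-18 uses IL18R1 with its own accessory chain IL18RAP. In adipose tissue, IL-1β is known for dampening insulin signalling and adipogenesis, and stromal cells are a known source of IL-33.

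Counts on named genes totalled 28.4 to 53.8 M (units of 1e6) per library, and log2 counts per 1e6 (CPM) correlated at 0.977 to 0.99 between libraries of a group. The adipocyte label was checked on 10 adipocyte markers. Their summed level was 3200 to 4430 CPM in scramble control and 642 to 1880 CPM in KD, and with LPS it was 3700 to 4290 and 519 to 1210 CPM. In KD against scramble control 7 of the 10 were lower without LPS and 8 of the 10 with LPS, and none was higher. For this and the next marker lists, the shares among all genes were 12.1% higher and 15.1% lower without LPS, and 12.7% and 14.2% with LPS. The lipoprotein lipase gene LPL did not exceed 82 counts and the leptin gene LEP did not exceed 21 counts in any library. By qPCR and western blot at day 14, the study itself reported more PPARγ, C/EBPα, FABP4, adiponectin and perilipin 1 in KD. The source of this difference from the counts was not tested. Summed stromal markers, over 8 genes, were 5980 to 7400 CPM in scramble control and 8250 to 9850 CPM in KD, and 5660 to 6420 and 9310 to 10700 CPM with LPS. The decorin gene DCN made up much of this sum, at 2130 to 6540 CPM. Of the 8, 4 were higher and 3 lower in KD both without and with LPS, with medians of 0.18 and 0.09. The 10 monocyte and macrophage markers summed to 60 to 63.9 CPM in scramble control, 62 to 75.1 CPM with LPS, 90.8 to 124 CPM in KD and 83.9 to 113 CPM in KD with LPS. Of these, AIF1 and TYROBP were at 0 in all 12 libraries and PTPRC, the gene of the common leukocyte antigen CD45, reached 12 counts at most. CD68 and the scavenger receptor gene CD163 were detected, at 23.8 to 67.7 and 3.15 to 82.5 CPM. Of the markers tested in this list, 1 of 6 was higher and 1 lower in KD without LPS, and 2 of 7 were higher and 1 lower with LPS. The 6 endothelial markers summed to 23.6 to 27.1 CPM in scramble control and 11.8 to 12.3 CPM in KD, and to 15.3 to 17 and 8.45 to 13.2 CPM with LPS, with CLDN5 at 0 in every library. Epithelial markers stayed at or under 1.64 CPM in sum. Mast cell markers stayed at or under 3.73 CPM in sum, with the tryptase gene TPSAB1 at 0 and MS4A2 at 1.23 to 3.73 CPM. What part these differences in markers have in the differences between the hairpins was not tested. In bulk libraries, fewer cells that express a gene and less of its RNA per cell cannot be told apart.

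Without LPS, KD adipocytes held more IL1B, IL1RL1 and IL18R1 mRNA than scramble control, slightly more IL1R1, and less IL33 and IL1RAP. By edgeR's quasi-likelihood test with Benjamini-Hochberg adjustment over all genes, at an adjusted p under 0.05, 4 of the 9 members tested were higher and 2 were lower, where 12.1% of all 16217 genes tested were higher and 15.1% lower. The median log2 fold change of the 9 was 0.34, and that of all genes was 0.024. With LPS, IL1A, IL1B, IL1RL1 and IL18R1 were higher in KD and IL33 and IL1RAP were lower, 4 and 2 of 10 members, where 12.7% of all 15981 genes were higher and 14.2% lower. The median of the 10 was 1.09 and that of all genes 0.025. The count of lower members was close to the share among all genes in both comparisons.

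LPS itself raised IL1B in both backgrounds and lowered IL1RN, IL1R1 and IL1RL1 in both. In scramble control, 2 of the 9 members tested were higher (IL1B and IL18R1) and 4 were lower (IL1RN, IL1R1, IL1RAP and IL1RL1), where 5.9% of all 15920 genes were higher and 8.38% lower. The median was -0.26 for the members and 0.020 for all genes. In KD, 2 of 10 members were higher (IL1A and IL1B) and 4 were lower (IL1RN, IL33, IL1R1 and IL1RL1), where 5.32% of all 16169 genes were higher and 6.03% lower, with medians of -0.26 and 0.0099. The KD effect differed with LPS for 1 of 10 members, IL1RAP, in the test of the interaction over all 12 libraries, where 0.943% of all 17173 genes had a higher and 0.332% a lower KD effect with LPS. These comparisons share control libraries, so their values are given side by side for each member.

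**Figure D1:**
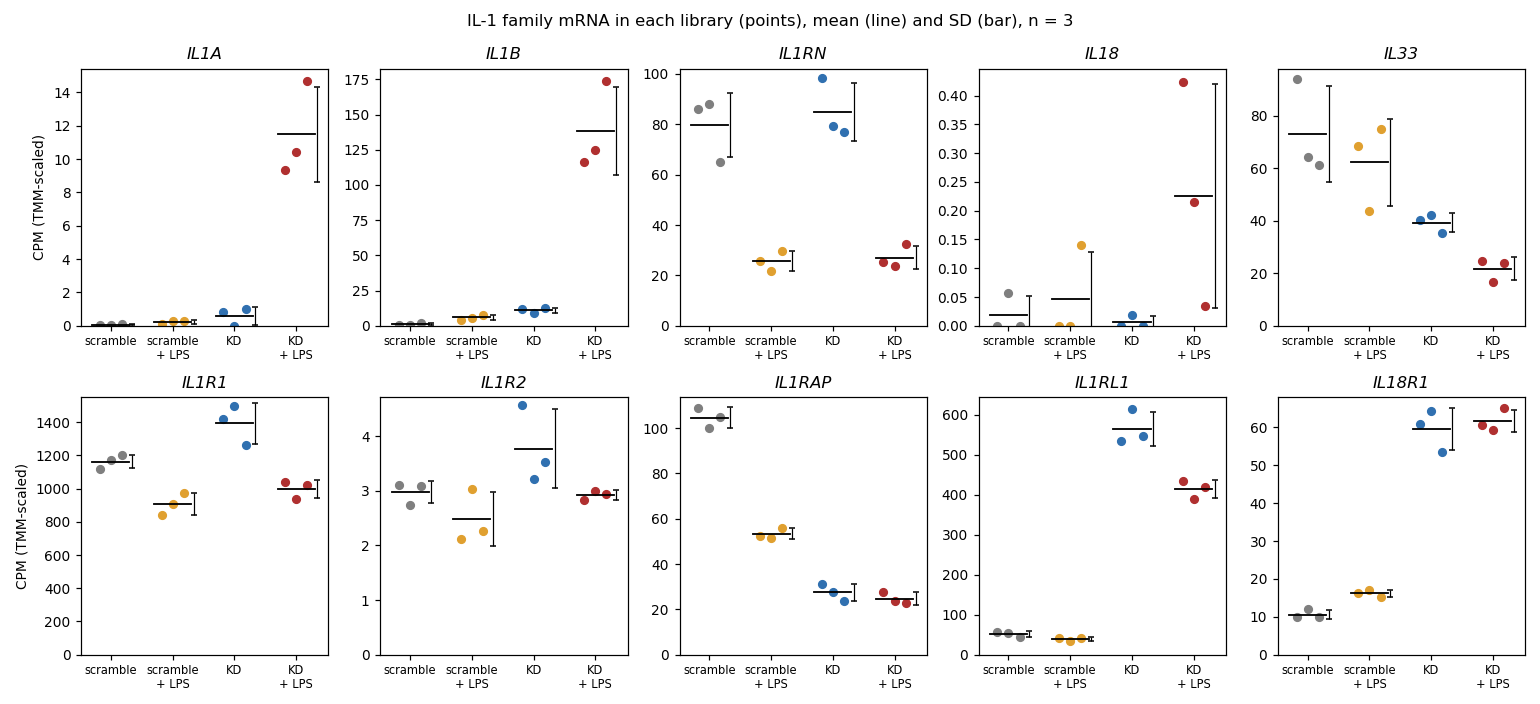
CPM of each of the 10 IL-1 family members in each library, one panel a gene, with the 4 groups on the x axis and a linear y axis from 0. Points are libraries, lines are means and bars are SDs of 3 libraries. IL1B reached 116 to 174 CPM in KD with LPS against 0.664 to 1.78 CPM in scramble control, and IL1RL1 lay at 535 to 614 CPM in KD against 44.2 to 56.5 CPM in scramble control.

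To compare genes with each other, levels were divided by the length of the MANE Select transcript, the reference transcript of each gene. On this scale of CPM per kb, IL1R1 was the highest member in scramble control at 225 ± 7.53 (SD, n = 3 libraries), followed by IL1RN at 46.7 ± 7.42. IL33 at 27.3 ± 6.80, IL1RL1 at 25.8 ± 3.28 and IL1RAP at 22.1 ± 0.899 CPM per kb came next, and the libraries of IL33 and IL1RL1 overlapped, as did those of IL1RL1 and IL1RAP. IL18R1 at 2.56, IL1R2 at 2.04 and IL1B at 0.739 CPM per kb were lower, and IL1A and IL18 were at 0.0334 and 0.0171. In KD the level of IL1RL1, at 283 ± 21.4 CPM per kb, overlapped that of IL1R1 at 269 ± 23.5, and IL1RAP, the accessory chain of both, was at 5.81 ± 0.811. In KD with LPS, IL1B ranked next at 91.7 ± 20.5 CPM per kb, behind IL1RL1 at 208 ± 11.3 and IL1R1 at 193 ± 10.2. The place of IL1RL1 depends on which of its transcripts is counted. With the length of its longest coding transcript, 3994 in place of 1997 bases, it was at 141 CPM per kb in KD and lay below IL1R1. In KD with LPS its libraries were then at 97.6 to 109 CPM per kb, within the 77.2 to 115 of IL1B. In scramble control IL1RL1 was then at 12.9 CPM per kb, below IL1RAP at 19.3 on the same scale.

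IL1B encodes IL-1β, made as a precursor that caspase-1 cleaves, and IL1A encodes IL-1α, whose precursor is active without cleavage. Both lie on the minus strand of chromosome 2 in GRCh38, IL1A at 112773925 to 112784493 and IL1B at 112829751 to 112836816, with 45258 bases between them and 7 exons in each reference transcript. Their RefSeq promoter windows, from 250 bases before to 50 after the start in GRCh38.p14, are shown because these neighbours had the highest folds of the family under LPS. Capitals mark matches, on either strand, to the C/EBP letters TTNNGNAA, the AP-1 letters TGANTCA and TATAAA. A kappa-B consensus was also searched and had no match in either window.
IL1A, chr2:112784444-112784743, minus strand: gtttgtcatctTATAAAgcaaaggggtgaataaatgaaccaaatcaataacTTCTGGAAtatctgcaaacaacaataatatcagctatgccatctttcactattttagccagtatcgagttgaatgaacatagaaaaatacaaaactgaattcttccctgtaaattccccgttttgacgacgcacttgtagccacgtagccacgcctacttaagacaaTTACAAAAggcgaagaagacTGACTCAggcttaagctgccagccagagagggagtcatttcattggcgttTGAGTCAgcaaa
IL1B, chr2:112836730-112837029, minus strand: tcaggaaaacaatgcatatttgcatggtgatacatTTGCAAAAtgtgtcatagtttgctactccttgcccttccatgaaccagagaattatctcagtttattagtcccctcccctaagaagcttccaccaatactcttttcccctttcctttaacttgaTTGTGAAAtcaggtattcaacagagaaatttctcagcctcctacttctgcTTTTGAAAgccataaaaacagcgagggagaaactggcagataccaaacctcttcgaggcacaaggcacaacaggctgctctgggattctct
The IL1A window held AP-1 letters from 12 bases before and from 38 bases after the start, C/EBP letters at -199 and -32, and TATAAA at -239. The IL1B window held C/EBP letters at -215, -91 and -41 and neither AP-1 letters nor TATAAA. Among all 35116 RefSeq promoter windows, 36.8% held the C/EBP letters, 7.71% the AP-1 letters, 11.5% TATAAA and 11.3% the kappa-B consensus. A match is a description of the letters and not of binding.

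Without LPS, IL1B was at 0.664, 0.894 and 1.78 CPM in the 3 scramble control libraries and at 11.6, 8.78 and 12.5 CPM in the 3 KD libraries. The lowest KD library was well above the highest scramble library. The difference was 9.92-fold (log2 3.31, standard error 0.32, adjusted p = 1.4e-05, edgeR). These values are of mRNA only. The study reported that IL-1β mRNA tended to be higher in KD, while secreted IL-1β protein was not raised. With LPS, the scramble libraries held 4.30, 5.88 and 7.99 CPM and the KD libraries 116, 125 and 174 CPM. Again the groups did not overlap, and the KD libraries without LPS also lay above the scramble libraries with LPS. KD was 22.7-fold above scramble control under LPS (log2 4.50, standard error 0.21, adjusted p = 4.1e-09, edgeR). LPS raised IL1B 5.51-fold in scramble control (log2 2.46, standard error 0.37, adjusted p = 0.00088) and 12.6-fold in KD (log2 3.66, standard error 0.17, adjusted p = 1.6e-09). The LPS effect was thus 2.28-fold larger in KD in value, a log2 difference of 1.19 (standard error 0.38), and this difference did not pass the test over all genes (adjusted p = 0.17, edgeR). It passed with genes of under 10 counts kept (adjusted p = 0.012) and with the replicate number as a block (adjusted p = 0.022).

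IL1A was close to the detection limit outside KD with LPS. Scramble control libraries had 4, 1 and 5 counts and KD libraries 28, 0 and 40 counts. The KD library at 0 lay below the scramble libraries, so the groups overlapped, and the log2 fold change of 3.10 had a standard error of 1.43 (adjusted p = 0.13, edgeR). Without KD replicate 2, the library at 0, the value was 3.69 (adjusted p = 0.021). With LPS, scramble libraries had 4, 8 and 13 counts and KD libraries 331, 483 and 417 counts, which is 0.102 to 0.305 CPM against 9.36, 10.4 and 14.7 CPM. No library of either group came near the other group. KD was 50.6-fold above scramble control (log2 5.66, standard error 0.36, adjusted p = 6.1e-08, edgeR), from a control level of few counts. In KD, LPS raised IL1A by 4.33 on the log2 scale (standard error 0.63, adjusted p = 0.00032), which was 3.66 without KD replicate 2 and 5.01 without KD replicate 3. The 1.71 in scramble control (standard error 1.23, adjusted p = 0.42) did not pass, and the difference of the effects, 2.60, had a standard error of 1.32 (adjusted p = 0.49, edgeR).

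IL1RN, which encodes the antagonist of IL1R1, lies on the plus strand of chromosome 2 at 113099315 to 113134016, 262499 bases from IL1B. Its transcripts start at several sites and encode secreted and intracellular forms, which gene counts do not separate. The window at the start of the reference transcript is shown for comparison with the agonists, with the same letters in capitals.
IL1RN, chr2:113127348-113127647, plus strand: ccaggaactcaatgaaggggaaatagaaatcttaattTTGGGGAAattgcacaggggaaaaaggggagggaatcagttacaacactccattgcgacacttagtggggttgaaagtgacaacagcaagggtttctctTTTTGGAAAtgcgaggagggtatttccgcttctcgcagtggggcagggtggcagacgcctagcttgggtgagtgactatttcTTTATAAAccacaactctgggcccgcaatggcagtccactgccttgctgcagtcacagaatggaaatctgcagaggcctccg
It held C/EBP letters at -213 and, overlapping each other, at -114 and -113, and TATAAA at -30, overlapping a match on the other strand. Scramble control libraries held 86.0, 87.9 and 65.1 CPM and KD libraries 98.3, 79.4 and 77.1 CPM. The groups overlapped, with means of 79.7 ± 12.6 and 84.9 ± 11.6 CPM (SD, n = 3 libraries each). On the log2 scale they differed by 0.10 (standard error 0.12, adjusted p = 0.62, edgeR), which is within the spread between libraries. With LPS, scramble libraries fell to 25.9, 21.6 and 29.7 CPM and KD libraries to 25.4, 23.6 and 32.3 CPM. Every LPS library lay below every library without LPS. Under LPS, IL1RN fell by 1.61 on the log2 scale in scramble control (standard error 0.14, adjusted p = 1.3e-05) and by 1.65 in KD (standard error 0.13, adjusted p = 6.9e-07, edgeR), and between the hairpins under LPS the log2 difference was 0.07 (standard error 0.15, adjusted p = 0.80). In the same libraries the IL1B level was 9.92-fold and 22.7-fold higher in KD. Per length, IL1RN exceeded IL1B in 3 of the groups, and in KD with LPS the order was turned, with 91.7 ± 20.5 CPM per kb of IL1B and 15.9 ± 2.69 of IL1RN.

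IL18, on the minus strand of chromosome 11 at 112143253 to 112164096, encodes another cytokine that caspase-1 activates. It was barely detected. Scramble libraries had 0, 3 and 0 counts, scramble libraries with LPS 0, 0 and 6, KD libraries 0, 1 and 0, and KD libraries with LPS 15, 10 and 1. A limit of 3 counts corresponds to 0.0557 to 0.105 CPM in these libraries. The 26 counts in KD with LPS against 6 in scramble control with LPS gave a ratio of 4.40 after scaling, with an exact 95% interval of 1.77 to 13.1 that covers counting error only. Against the single count in KD without LPS the ratio was 30.4 (exact interval 5 to 1250). The 3 KD libraries with LPS differed widely, and edgeR's test over libraries called neither the KD effect under LPS (log2 2.13, standard error 1.74, adjusted p = 0.42) nor the LPS effect in KD (log2 4.49, standard error 2.04, adjusted p = 0.21) nor the interaction (log2 3.30, standard error 2.86, adjusted p = 0.75). The KD effect without LPS and the LPS effect in scramble control had too few counts to be tested. IL18 had no promoter window in the RefSeq table.

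IL33, on the plus strand of chromosome 9 at 6215786 to 6257983, encodes a nuclear cytokine released from damaged stromal and barrier cells. Scramble libraries held 94.2, 64.2 and 61.3 CPM and KD libraries 40.2, 42.3 and 35.3 CPM. All KD libraries lay below all scramble libraries. IL33 was lower by a log2 fold change of -0.90 in KD (standard error 0.15, adjusted p = 0.00074, edgeR). Under LPS the scramble libraries held 68.4, 43.7 and 75.0 CPM and the KD libraries 24.6, 16.6 and 24.1 CPM, again without overlap (log2 -1.53, standard error 0.19, adjusted p = 4.4e-05). Under LPS, IL33 in KD fell by 0.85 on the log2 scale (standard error 0.15, adjusted p = 0.0012). In scramble control the LPS difference was -0.22 (standard error 0.19, adjusted p = 0.54), and the difference between these effects did not pass (log2 -0.63, standard error 0.27, adjusted p = 0.38, edgeR). IL33 was thus lower in KD in both comparisons in which IL1B and its own receptor gene IL1RL1 were higher.

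**Figure D2:**
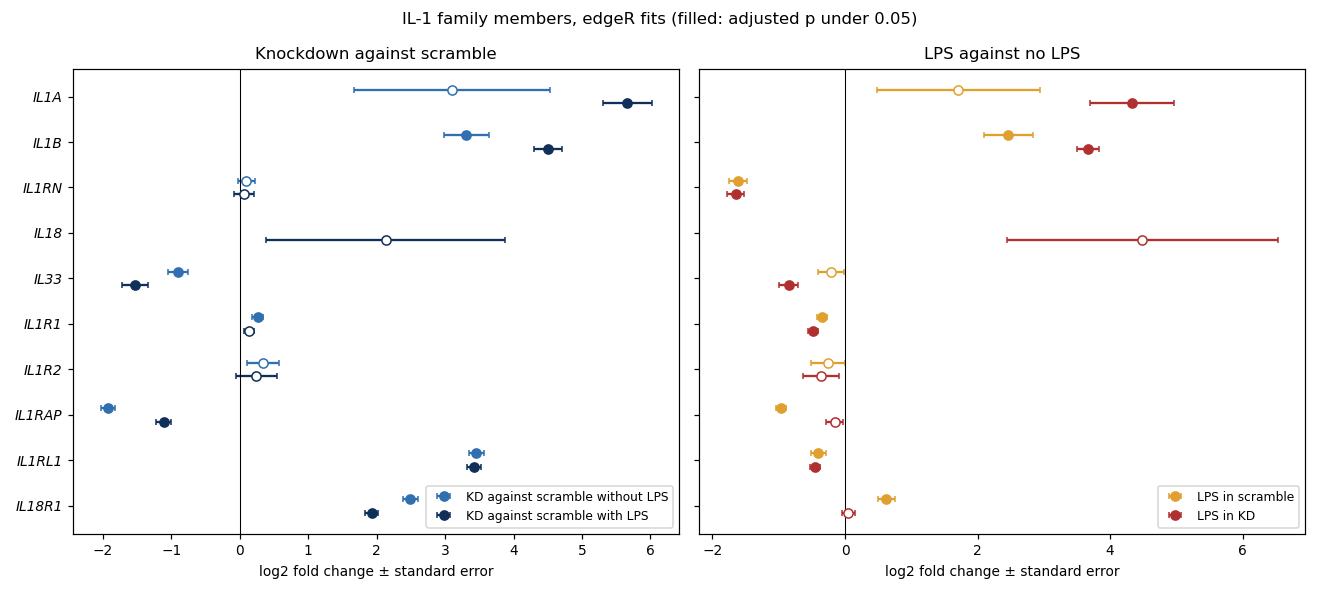
Log2 fold changes of the 10 members with their standard errors from edgeR, on the left for KD against scramble control without and with LPS and on the right for LPS in each hairpin. Filled points passed an adjusted p of 0.05. IL1RL1 lay at 3.46 and 3.42 and IL1RAP at -1.92 and -1.11 on the left, and IL1RN at -1.61 and -1.65 on the right.

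The ligand-binding chain of the IL-1 receptor, IL1R1, on chromosome 2 at 102064544 to 102179874, was the most abundant member per length in scramble control. It was at 1120, 1170 and 1200 CPM in the scramble libraries and at 1420, 1500 and 1260 CPM in the KD libraries. The groups did not overlap, although by a small margin. The difference was 1.2-fold (log2 0.26, standard error 0.079, adjusted p = 0.026, edgeR), and the call was lost without scramble replicate 1 (adjusted p = 0.077), scramble replicate 2 (adjusted p = 0.078), KD replicate 1 (adjusted p = 0.091) or KD replicate 2 (adjusted p = 0.098). With LPS, scramble libraries held 841, 910 and 972 CPM and KD libraries 1040, 939 and 1020 CPM. These groups overlapped (log2 0.14, standard error 0.075, adjusted p = 0.20). Scaling by library size alone gave 0.22 (adjusted p = 0.038). IL1R1 in scramble control fell by 0.35 with LPS on the log2 scale (standard error 0.078, adjusted p = 0.012), a call lost without scramble replicate 2 (adjusted p = 0.057), and in KD by 0.48 (standard error 0.073, adjusted p = 0.00045, edgeR). Its interaction was not called (log2 -0.12, standard error 0.11, adjusted p = 0.77).

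IL1RAP, on chromosome 3 at 190514051 to 190659750, encodes the accessory chain that the IL-1 and IL-33 receptors share. Scramble libraries held 109, 100 and 105 CPM, and KD libraries held 31.4, 27.6 and 23.7 CPM. The groups were far apart, and KD was at 0.264 of the scramble level (log2 -1.92, standard error 0.10, adjusted p = 1.5e-07, edgeR). With LPS the scramble libraries fell to 52.2, 51.7 and 56.1 CPM, and the KD libraries, at 27.8, 23.8 and 22.6 CPM, overlapped those without LPS. KD was still lower under LPS (log2 -1.11, standard error 0.11, adjusted p = 3.3e-06). With LPS, IL1RAP fell by 0.96 in scramble control (standard error 0.076, adjusted p = 7.6e-06), and the value in KD was -0.16 (standard error 0.13, adjusted p = 0.54). The difference of the effects was 0.82 on the log2 scale (standard error 0.14, adjusted p = 0.0072, edgeR over all 12 libraries) and ranged from 0.70 to 0.92 with each library left out in turn, with adjusted p from 0.0045 to 0.025. The lowest of the 3 scramble libraries with LPS stayed above the highest KD library. A soluble form of IL1RAP also exists and is not separated by gene counts.

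IL1R2, the decoy receptor, on chromosome 2 at 101991960 to 102028544, had 83 to 173 counts per library. Group means were 2.98 ± 0.211 CPM in scramble control, 2.48 ± 0.491 with LPS, 3.77 ± 0.716 in KD and 2.92 ± 0.0842 in KD with LPS (SD, n = 3 libraries each). None of its comparisons passed, with log2 fold changes of 0.34 and 0.24 for KD (adjusted p = 0.32 and 0.62) and -0.26 and -0.37 for LPS (adjusted p = 0.57 and 0.48, edgeR). The KD libraries without LPS nevertheless all lay above the scramble libraries, at 3.21 to 4.58 against 2.74 to 3.11 CPM.

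IL1RL1, which encodes the IL-33 receptor ST2, and IL18R1, which encodes the ligand-binding chain of the IL-18 receptor, are neighbours on the plus strand of chromosome 2. In GENCODE release 44 their gene models, at 102311502 to 102352037 and 102311529 to 102398777, begin 27 bases apart and overlap, and they share 95 exon bases, 1.65% of the exon bases of IL1RL1 and 2.11% of those of IL18R1. Reads that lie within the shared bases cannot by themselves tell the 2 genes apart, and gene counts do not separate membrane-bound from soluble ST2. Their RefSeq windows are shown because both genes rose strongly in KD, with IL1RL1 having 2 starts 25694 bases apart. The capitals again mark C/EBP letters, AP-1 letters and TATAAA.
IL1RL1, start of the reference transcript, chr2:102311313-102311612, plus strand: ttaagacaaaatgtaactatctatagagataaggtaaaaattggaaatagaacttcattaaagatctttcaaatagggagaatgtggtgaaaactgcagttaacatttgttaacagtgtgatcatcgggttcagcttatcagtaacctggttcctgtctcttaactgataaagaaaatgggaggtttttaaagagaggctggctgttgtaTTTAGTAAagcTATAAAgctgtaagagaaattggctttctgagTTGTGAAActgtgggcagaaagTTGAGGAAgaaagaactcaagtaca
IL1RL1, other start, chr2:102337007-102337306, plus strand: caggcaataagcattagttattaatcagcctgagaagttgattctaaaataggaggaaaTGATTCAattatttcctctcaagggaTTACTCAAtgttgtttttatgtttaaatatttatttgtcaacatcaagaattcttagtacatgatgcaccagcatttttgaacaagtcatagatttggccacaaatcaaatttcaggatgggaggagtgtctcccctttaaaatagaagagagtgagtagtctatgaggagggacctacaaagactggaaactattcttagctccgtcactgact
IL18R1, start of the reference transcript, chr2:102355546-102355845, plus strand: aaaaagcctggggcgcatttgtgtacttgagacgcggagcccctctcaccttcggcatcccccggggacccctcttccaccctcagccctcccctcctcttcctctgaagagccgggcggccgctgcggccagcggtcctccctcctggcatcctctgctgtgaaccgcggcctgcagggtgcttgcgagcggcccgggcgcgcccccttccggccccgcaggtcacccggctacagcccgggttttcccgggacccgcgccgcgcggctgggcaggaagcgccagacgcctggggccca
The first IL1RL1 window held C/EBP letters at -40, 3 and 25 and TATAAA at -29, and the second held C/EBP letters at -165 and AP-1 letters at -191. The IL18R1 window held none of the motifs. A second IL18R1 start, not printed, had a kappa-B match at -244 and C/EBP letters at 32.

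IL1RL1 was at 56.5, 54.2 and 44.2 CPM in scramble control and at 535, 614 and 547 CPM in KD. Every KD library was far above every scramble library, at 18571 to 33070 against 2055 to 2974 counts. The difference was 11-fold (log2 3.46, standard error 0.11, adjusted p = 9.3e-09, edgeR). With LPS, the scramble libraries held 41.9, 33.1 and 41.0 CPM and the KD libraries 434, 390 and 420 CPM. The fold was 10.7 (log2 3.42, standard error 0.10, adjusted p = 1.5e-10), and the interaction was -0.03 (standard error 0.14, adjusted p = 1). In KD, IL1RL1 fell by 0.45 with LPS on the log2 scale (standard error 0.075, adjusted p = 0.00096). In scramble control it fell by 0.40 (standard error 0.12, adjusted p = 0.04, edgeR), and that call was lost without scramble replicate 1 (adjusted p = 0.15), scramble replicate 2 (adjusted p = 0.16), scramble with LPS replicate 2 (adjusted p = 0.11) or scramble with LPS replicate 3 (adjusted p = 0.076).

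IL18R1 libraries of scramble control were at 9.91, 12 and 9.90 CPM and those of KD at 61.0, 64.3 and 53.6 CPM. The groups did not overlap and differed 5.63-fold (log2 2.49, standard error 0.11, adjusted p = 8.2e-08, edgeR). With LPS the scramble libraries held 16.2, 17.1 and 15.3 CPM and the KD libraries 60.7, 59.4 and 65.0 CPM. KD was 3.81-fold higher (log2 1.93, standard error 0.099, adjusted p = 9e-09). LPS raised IL18R1 in scramble control by 0.62 on the log2 scale (standard error 0.13, adjusted p = 0.0063), where all LPS libraries lay above the others. In KD the value was 0.05 (standard error 0.095, adjusted p = 0.84). The test of this difference between the hairpins gave -0.56 (standard error 0.14, adjusted p = 0.071) with edgeR and -0.57 (adjusted p = 0.018) with DESeq2, and without KD replicate 3 it was -0.65 (adjusted p = 0.033, edgeR).

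The receptor members other than IL1RAP lie in 1 cluster of chromosome 2 and IL1A, IL1B and IL1RN in another. The tested genes were therefore counted within 500000 bases of each. The members themselves are among them, so these counts are not independent of the choice of members. In the receptor cluster without LPS, 4 of 10 tested genes were higher in KD and none was lower. Besides IL1R1, IL1RL1 and IL18R1 this was MAP4K4, which encodes a kinase, at a log2 fold change of 0.71 (adjusted p = 2e-05). With LPS, 3 of 11 were higher and 1, IL1RL2, was lower. The genes next to IL1RL1 and IL18R1 that were tested and not called included IL18RAP, which encodes the IL-18 accessory chain, with a mean of 6 counts per library. In the ligand cluster 3 of 21 genes were higher and 2 lower in KD without LPS, and 5 were higher and 3 lower with LPS. For both clusters the shares among all genes were 12.1% higher and 15.1% lower without LPS, and 12.7% and 14.2% with LPS. Apart from IL1A and IL1B, the ligand cluster genes that were higher in KD with LPS were CHCHD5 at 0.70 (adjusted p = 0.014), CKAP2L at 0.96 (adjusted p = 0.047) and PAX8 at 1.27 (adjusted p = 0.036, edgeR). The values of IL1A and IL1B there, 5.66 and 4.50, stood above those of the other neighbours that passed. IL1RN, between them and PAX8, was at 0.07.

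**Figure D3:**
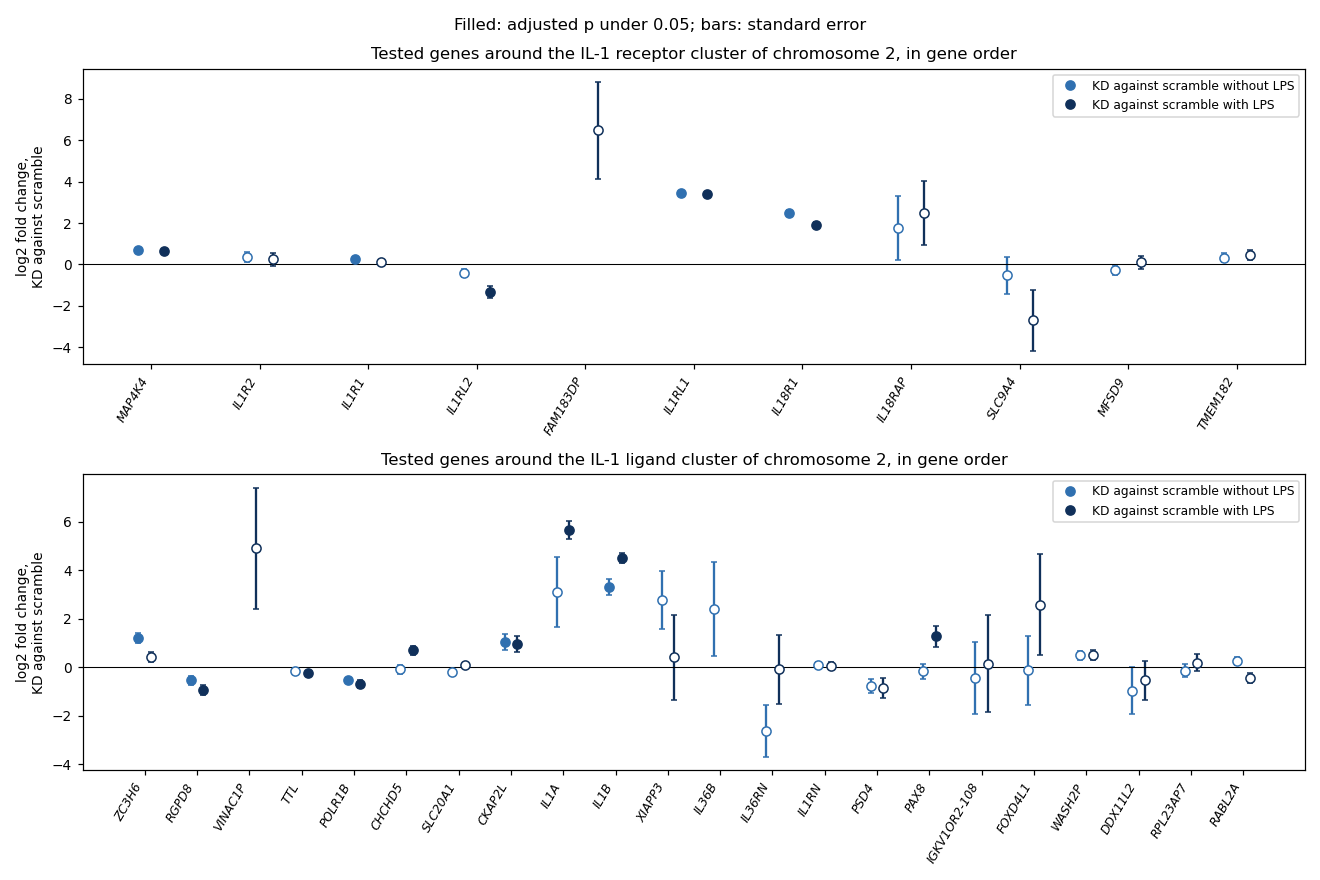
Log2 fold changes of KD against scramble control, with standard errors, for each tested gene within 500000 bases of the IL-1 receptor cluster (top) and of the IL-1 ligand cluster (bottom) of chromosome 2, in gene order. Filled points passed an adjusted p of 0.05. IL1RL1 at 3.46 and IL18R1 at 2.49 without LPS stand out in the top panel, and IL1A at 5.66 and IL1B at 4.50 with LPS in the bottom panel.

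The remaining ligands of the family were almost undetected. IL36A and IL37 were at 0 in every library, IL36G and IL1F10 reached 4 and 2 counts, and IL36B 11 counts. IL36RN, an antagonist of the IL-36 receptor, had 0 to 48 counts and was not called in any comparison by edgeR, with a log2 fold change of -2.60 in KD without LPS (standard error 1.07, adjusted p = 0.097). DESeq2 called 1 of these ligands lower in that comparison. Of 6 other receptors and binding proteins, 5 were tested. In KD against scramble control under LPS, 1 of the 5 was lower, where 14.2% of all genes were lower. With LPS in KD, 1 of the 5 was lower, where 6.03% of all genes were lower. In both cases this was IL1RL2, and the other comparisons had no call. The IL-36 receptor gene IL1RL2 was at 6.10 ± 0.570 CPM in scramble control, 4.89 ± 0.938 with LPS, 4.55 ± 0.516 in KD and 1.95 ± 0.0891 in KD with LPS (SD, n = 3 libraries each). It was lower in KD under LPS (log2 -1.33, standard error 0.28, adjusted p = 0.0026) and in KD it fell by 1.22 with LPS (standard error 0.27, adjusted p = 0.008, edgeR). The IL-18 binding protein gene IL18BP had 2.25 ± 0.128 CPM in scramble control against 3.05 ± 0.995 CPM in KD, and the inhibitory receptor gene SIGIRR 1.19 ± 0.208 against 1.55 ± 0.400 CPM, without a call.

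Of 21 genes of receptor signalling, 3 were higher and 4 lower in KD without LPS, with a median log2 fold change of -0.01 beside 0.024 for all genes, where 12.1% of all genes were higher and 15.1% lower. Scaling by library size only gave 4 higher and 1 lower. With LPS, edgeR called 5 higher and none lower, with a median of -0.02 beside 0.025, where 12.7% of all genes were higher and 14.2% lower, and the replicate block gave 1 lower call. PELI1 and PELI2 encode ubiquitin ligases. PELI2 rose by 1.29 (standard error 0.23, adjusted p = 0.0011) without LPS. Under LPS PELI1 rose by 1.31 (standard error 0.19, adjusted p = 0.00016) and IRAK2, a kinase of the receptor complex, by 1.24 (standard error 0.12, adjusted p = 4.3e-06, edgeR), while PELI2 at 1.13 lost its call without KD with LPS replicate 3 (0.81, adjusted p = 0.078). The other genes that rose under LPS were IKBKB, which encodes a kinase of the IKK complex, by 0.57 (adjusted p = 0.001), and TIFA, which encodes an adaptor of TRAF6, by 0.47 (adjusted p = 0.031, edgeR). MYD88, the adaptor that all signalling members share, had 43.5 ± 2.08 CPM in scramble control against 46.3 ± 3.78 CPM in KD and was not called. LPS raised 7 of these genes and lowered 2 in each hairpin. Of all genes it raised 5.9% and lowered 8.38% in scramble control, and raised 5.32% and lowered 6.03% in KD. One of the raised genes was MAP3K8, which encodes a kinase upstream of MEK. It rose by 1.45 in scramble control (adjusted p = 5.2e-06) and 1.72 in KD (adjusted p = 9.2e-09, edgeR). IRAK2 was the 1 gene of the 21 with a called interaction (0.82, standard error 0.17, adjusted p = 0.02, edgeR), and it is named for that after its value was seen.

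The genes that process and release IL-1 moved in both directions. Without LPS 2 of 17 tested were higher and 5 lower in KD (median -0.07), beside 12.1% and 15.1% of all genes, and 2 were lower with library size only or without scramble replicate 2. With LPS 3 were higher and 5 lower (median -0.19), beside 12.7% and 14.2%. NINJ1, which encodes a protein of plasma membrane rupture, rose in KD by 1.41 without LPS (standard error 0.12, adjusted p = 6e-06) and by 1.59 with LPS (standard error 0.12, adjusted p = 4.2e-07). Its level was 11.4 ± 1.54 CPM in scramble control, 38.6 ± 6.70 with LPS, 30.3 ± 2.53 in KD and 116 ± 11.8 in KD with LPS (SD, n = 3 libraries each), and LPS raised it 3.41-fold in scramble control (adjusted p = 8.5e-06) and 3.82-fold in KD (adjusted p = 8.2e-09, edgeR). CASP1, whose product cleaves the IL-1β and IL-18 precursors, had 4.16 ± 0.567 CPM in scramble control against 8.07 ± 1.07 CPM in KD (log2 0.96, standard error 0.19, adjusted p = 0.0024, edgeR), and is named after its value was seen. NLRP3, a sensor that activates it, had 0 to 9 counts per library. The lower genes without LPS included CAPN1, CAPN2 and CAPNS1, the subunits of the calpains that cleave the IL-1α precursor. LPS raised 3 of 16 and lowered 1 in scramble control (median 0.14), beside 5.9% and 8.38% of all genes. In KD it raised 2 of 17 and lowered 1 (median 0.14), beside 5.32% and 6.03%. EdgeR called no interaction in this list, where DESeq2 called 1 higher and 1 lower.

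Among 12 NF-kB subunits and inhibitors, edgeR called 6 higher in KD without LPS and 8 with LPS, and none lower, with medians of 0.31 and 0.35. Among all genes 12.1% were higher and 15.1% lower without LPS, and 12.7% and 14.2% with LPS, with medians of 0.024 and 0.025. DESeq2, and edgeR without the filter on low counts, each called 1 lower without LPS. LPS raised 10 of the 12 in scramble control and 11 in KD, with medians of 1.5 and 1.63 beside 0.020 and 0.0099 for all genes. Among all genes, 5.9% were raised by LPS in scramble control and 5.32% in KD. The inhibitor gene TNIP3 had the largest log2 fold change of the list in each of the 4 comparisons and was at 1.71 ± 0.293 CPM in scramble control, 8.75 ± 0.810 with LPS, 3.72 ± 0.595 in KD and 39.7 ± 2.00 in KD with LPS (SD, n = 3 libraries each). Its KD effect was larger with LPS, by 1.07 (standard error 0.22, adjusted p = 0.02, edgeR), a call lost without scramble replicate 1 or without KD with LPS replicate 3 (adjusted p = 0.065 each). NFKBIZ, which encodes a cofactor of NF-kB for secondary response genes, rose in KD under LPS by 1.13 (standard error 0.076, adjusted p = 1.1e-07).

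Of 18 genes known to respond to IL-1 in stromal cells, 15 were higher and 1 lower in KD without LPS, and 17 were higher and 1 lower with LPS. The shares among all genes were 12.1% higher and 15.1% lower without LPS, and 12.7% and 14.2% with LPS. The medians were 1.62 and 1.81 beside 0.024 and 0.025 for all genes. The list was written with earlier results of these data known, and its genes also respond to LPS through the shared adaptor MYD88. MMP1, the interstitial collagenase, was at 1.63 ± 0.468 CPM in scramble control, 1.15 ± 0.305 with LPS, 115 ± 32.1 in KD and 263 ± 93.1 in KD with LPS. It rose in KD by 6.13 on the log2 scale without LPS (standard error 0.24, adjusted p = 2.3e-08) and by 7.81 with LPS (standard error 0.28, adjusted p = 4.9e-10, edgeR). MMP3, which encodes stromelysin, rose by 2.52 (standard error 0.13, adjusted p = 1.1e-07) and 4.30 (standard error 0.19, adjusted p = 2.6e-09). The lower gene was PTGES, a prostaglandin E synthase, at -0.43 and -0.45 (adjusted p = 0.026 and 0.00059, edgeR), and with library size only no gene of the list was lower without LPS. LPS raised 15 of 17 tested genes in scramble control and 16 of 18 in KD, with medians of 1.88 and 2.16, where it raised 5.9% and 5.32% of all genes. In scramble control MMP3 fell by 1.82 (standard error 0.16, adjusted p = 1.9e-05), whereas in KD its value was -0.05 (adjusted p = 0.88). The interaction was higher for MMP3 (1.78, adjusted p = 0.00062), IL6 (1.17, adjusted p = 0.00014), CCL2 (1.15, adjusted p = 0.016) and PTGS2 (0.96, adjusted p = 0.034) and lower for SOD2 (-0.81, adjusted p = 0.00099, edgeR), and the call of CCL2 was lost without scramble replicate 2 (adjusted p = 0.057). SOD2 and the interaction of PTGS2 were chosen after their values were seen.

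**Figure D4:**
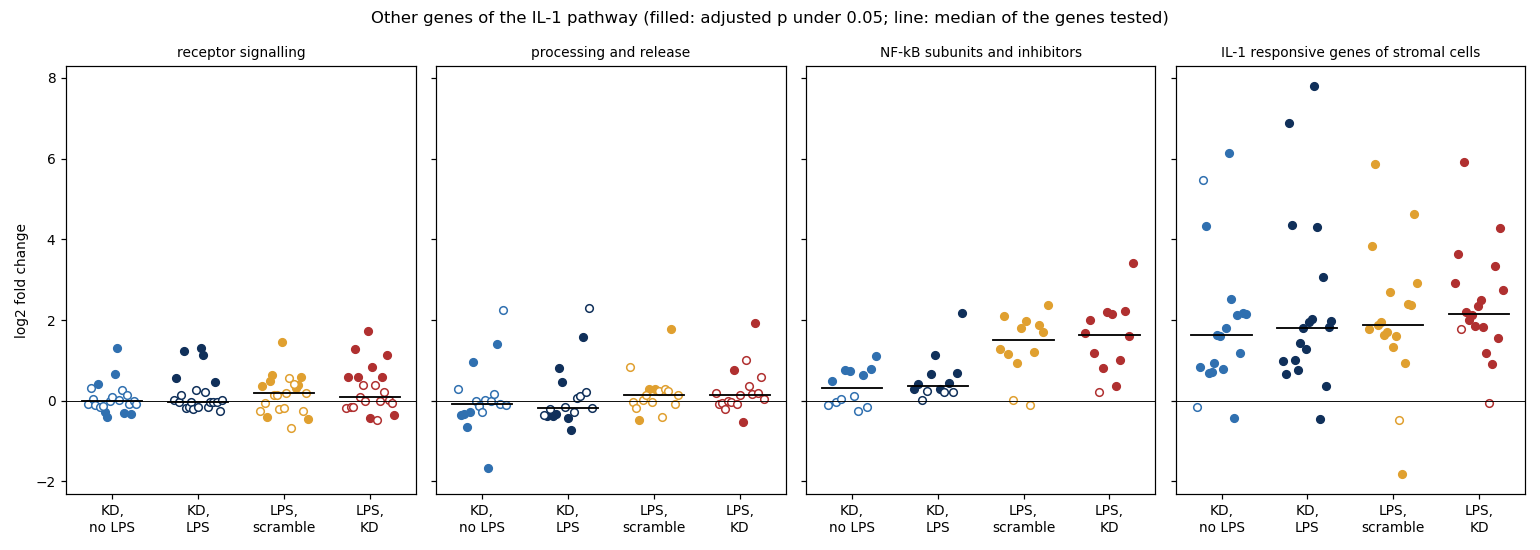
Log2 fold changes of the tested genes in 4 lists of the IL-1 pathway (panels) in the 4 comparisons (x axis), with filled points for an adjusted p under 0.05 and lines for list medians. In the list of IL-1 responsive genes the medians lay at 1.62 and 1.81 for KD and at 1.88 and 2.16 for LPS, and in that of receptor signalling at -0.01 and -0.02 for KD.

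The patterns across the 12 libraries were compared with those of the 11810 genes that averaged 50 counts or more per library, by the Pearson r of log2 CPM, as a description of libraries that fall into 4 groups and share their depth and scaling. Among the genes most like IL1B were ACKR3 (r = 0.987) and ARRDC3 (0.985), where the top 5% of genes had r above 0.851. Those most like IL1RL1 were GARS1 (0.993), SOX4 (0.991) and TNFRSF10B (0.990), and those most like IL18R1 were SLC1A4 (0.991), PYGL (0.991) and CSRP2 (0.988). The nearest to IL1RAP was ALKBH5 (0.981), to IL1RN SPRY2 (0.979), to IL33 BIRC6 (0.980), to IL1R1 ATP10A (0.976), to IL1A YPEL3 (0.945) and to IL1R2 JUNB (0.905). No other member of the family was among the 3 nearest genes of any member.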

How the data were processed

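Adipocytes of the ASC52telo hTERT line were sequenced at day 14 as polyA RNA from stranded libraries, 3 for each of 4 groups. The authors pseudoaligned the reads with kallisto 0.44.0 to human transcriptomes of GRCh38 and deposited estimated counts summed per gene name, per the labels and the study's methods. The values are whole numbers and are not scaled for depth or length. The annotation release behind the index is not given in the sources used here. A row without a gene name, 0.235 to 0.306% of the counts of a library, was left out.

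In R 4.3.3, genes whose counts summed to 10 or more in the libraries compared were scaled by TMM and tested with edgeR 4.0.16 (quasi-likelihood F test, Benjamini-Hochberg over all genes tested, call at an adjusted p under 0.05). Standard errors were derived as the log2 fold change over the square root of its F statistic. CPM are scaled by TMM over the 12 libraries, and a mean ± SD is over 3 libraries. Each comparison used the 6 libraries of its groups, and the interaction used all 12. The authors used DESeq2 1.32.0, and DESeq2 1.42.0 was an alternative here, beside other scalings and filters, a joint fit of the 12 libraries, a block on the replicate number, and the omission of single libraries. The steps were tested on simulated data. The libraries of a group differed by more than sampling noise, so none was counted as a duplicate. Neither the labels nor the file name a batch.

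The members and the gene lists were chosen with earlier results of these data known. Every member is named in every comparison. Of the other lists, a rule selects up to 4 genes a comparison, and only some of these are named. The rule takes genes called with at least a 2-fold difference and a mean of at least 50 counts, by size, or else the most abundant. Other genes of these lists, such as MYD88, IKBKB, NLRP3, CASP1, SOD2, PTGES and the calpain genes in KD, were named after their values were seen. The LPS values of MMP3 were also chosen after they were seen. Genes of like pattern are the 3 with the highest r for each member with a mean of at least 50 counts. Positions and transcript lengths come from GENCODE release 44 on GRCh38, which holds 28647 of the 28901 names, and promoter windows from RefSeq on GRCh38.p14, which had 19 windows for 9 of the 10 members. Intervals on ratios of counts are exact and cover counting error only. A gene that the naming rule selects is not reported here.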

Additional observations from a re-analysis of the deposited data

Results flagged for a closer look

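The effect of linc-ADAIN KD on IL1RAP, the gene of the accessory chain shared by the IL-1 and IL-33 receptors, differed between cells without and with LPS, by 0.82 on the log2 scale (adjusted p = 0.0072, edgeR's test of the interaction over all 12 libraries). KD was at -1.92 without LPS and at -1.11 with LPS, and LPS was at -0.96 in scramble control and at -0.16 in KD.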

How the results depend on the processing

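Of 48 results for single members, 34 kept their direction and their side of the threshold under every alternative. When single libraries were omitted, the number of lower members under LPS in scramble control was 2 to 4, at 2 without scramble replicate 2, and the number of members with a lower interaction was 0 to 1, at 1 without KD replicate 3. That number was 1 with DESeq2 and 1 without the filter on low counts, and the number with a higher interaction was 2 without the filter and 2 with the replicate block. IL1A without LPS passed with all 12 libraries in the fit (adjusted p = 0.016, edgeR).

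Directions reversed only for log2 values near 0 that were not called. With single libraries omitted, IL1RN in KD ranged from -0.0406 to 0.17 without LPS and from -0.0779 to 0.18 with LPS, and IL33 under LPS in scramble control from -0.37 to 0.0102. IL18R1 under LPS in KD ranged from -0.0321 to 0.0967 and was at -0.00532 with library size only. Interactions ranged from -0.17 to 0.0999 for IL1RN, from -0.13 to 0.0681 for IL1RL1 and from -0.21 to 0.074 for IL1R2.

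Scaling by library size only moved the median of all genes by 0.104 for KD without LPS, and the higher share of calls from 44.5% to 61.4%, from 47.2% to 59.2% for KD with LPS and from 46.9% to 35.2% for LPS in KD. Calls of the interaction over all genes numbered 219, against 475 with DESeq2 and 431 without the filter. Whether the replicate numbers pair the libraries was not settled, as correlations of same-numbered pairs went both ways. Of 18 such pairs, 4 had deviations correlated over 0.1 (r from -0.14 to 0.246), and 6 of 12 libraries correlated best with their own number. The replicate block gave 3857 calls for KD without LPS against 4411 without it. In the other comparisons it gave more calls, 4636 against 4292 for KD with LPS and 3260 against 2274 for LPS in scramble control. For LPS in KD it gave 2238 against 1835, and for the interaction 231 against 219. It called the interaction of IL1B (1.18, adjusted p = 0.022, edgeR). The lengths of the longest coding transcripts were an alternative chosen after seeing the data.

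Depth limited IL18 and IL1A, with under 50 counts in every library but those of IL1A in KD with LPS. Knockdown and differentiation state cannot be told apart in these groups, and all libraries come from 1 experiment with 1 hairpin.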
